A study of Rattus norvegicus with 6 samples.

Results

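The genes described here are markers of astrocyte identity together with genes that carry lipid or handle glutamate and aldehydes. They were sought under 10 names, Apoe, Ptprz1, Tspan7, Aldh1a1, Gfap, Aqp4, Slc1a2, Slc1a3, Glul and Aldh1l1. The count table gives Ensembl identifiers without names, so a gene was taken up only where a gene list published with the study pairs its identifier with the name. The portion of that list used here is ordered by the p-value of TE-RMS against planar astrocytes and names 1503 of the 23940 genes in the count table. By this rule 6 genes were kept, Apoe, Slc1a2, Slc1a3, Ptprz1, Tspan7 and Aldh1a1, while Gfap, Aqp4, Glul and Aldh1l1 were not analysed here. The 6 genes were thus selected on the contrast between the culture formats, and their differences in that contrast are given as a description, so that a call named below is not evidence for them. Among the 16331 genes tested, those with a total of 10 counts or more over the libraries, they ranked from 25 to 120 by p. Of the named genes, C4a and Il1rl1 ranked last by p in the fit used here, at 3466 and 3941. Their log2 fold changes were -3.80 and -4.67. These ranks come from that fit and do not mark where the named portion of the list ends.

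RNA was sequenced from rat cortical astrocytes of Sprague-Dawley pups at postnatal day 0 to 1, used at passage 4 and collected after 4 days in vitro. The tissue-engineered rostral migratory stream (TE-RMS) is a bundle of aligned astrocytes that forms within a collagen-coated agarose microchannel, and planar astrocytes grew flat on collagen in the same TE-RMS medium. There were 3 libraries of each format, and each of 3 runs gave 1 library of each from sister flasks. The labels date the runs, and they are named here by month, as July, September and October. Each TE-RMS library pooled constructs from 3 sequential fabrication days, with 1 flask used per day, and planar cells were plated only on the last of these days. The constructs had been picked for complete bundling and stored in RNAlater, whereas planar cells were taken fresh. Format, fabrication days and flasks, picking, pooling and storage thus changed together and cannot be told apart. Library totals were 70682593, 70478784 and 56483332 counts for planar astrocytes in July, September and October, and 54601354, 77277336 and 64537115 for TE-RMSs. Levels are given as CPM, counts scaled to a common library total with TMM factors, on which 3 counts correspond to 0.0415 to 0.0529 CPM. Levels are not divided by transcript length, so levels of different genes are not compared, and the gene with the most CPM in a list need not be the most abundant per length. Fold changes are TE-RMS over planar from the quasi-likelihood fit of edgeR with the run as a block, with the standard error (SE) on the log2 scale.

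Astrocytes remove glutamate from around synapses, pass lipid to neurons in lipoprotein particles and supply them with metabolites. Apolipoprotein E, the product of Apoe, is the main protein of the lipid particles that astrocytes secrete. GLT-1 and GLAST, the products of Slc1a2 and Slc1a3, are the glutamate transporters of astrocytes, and GLT-1 typically becomes abundant as astrocytes mature in the company of neurons. Ptprz1 encodes a receptor phosphatase of glia and their progenitors that carries chondroitin sulfate and binds pleiotrophin. Tspan7 encodes a membrane protein of the tetraspanin family. Aldh1a1 encodes a cytosolic enzyme that oxidizes aldehydes, including retinal to retinoic acid.

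All 6 genes were higher in TE-RMS than in planar astrocytes within each of the 3 runs, with folds within a run from 2.66 to 20.3. Over the runs Slc1a2 had the largest fitted fold at 15.2, followed by Ptprz1 at 5.14, Aldh1a1 at 4.11, Apoe at 3.47, Tspan7 at 3.26 and Slc1a3 at 2.94. Of all tested genes, 22.5% were higher in TE-RMS in all 3 runs. At an adjusted p under 0.05 the 6 genes were all called higher, where 9.36% of all tested genes were called higher, 9.28% lower and 18.6% in either direction. Without the run in the model Aldh1a1 lost its call (adjusted p = 0.146, edgeR) and the other 5 genes did not. The median log2 fold change of the 6 genes was 1.92, against -0.12 over all tested genes and -0.76 over the 1503 named genes. Because the named genes come from a list ordered by this contrast, nothing is read from these counts and medians about the 6 genes.

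**Figure D1:**
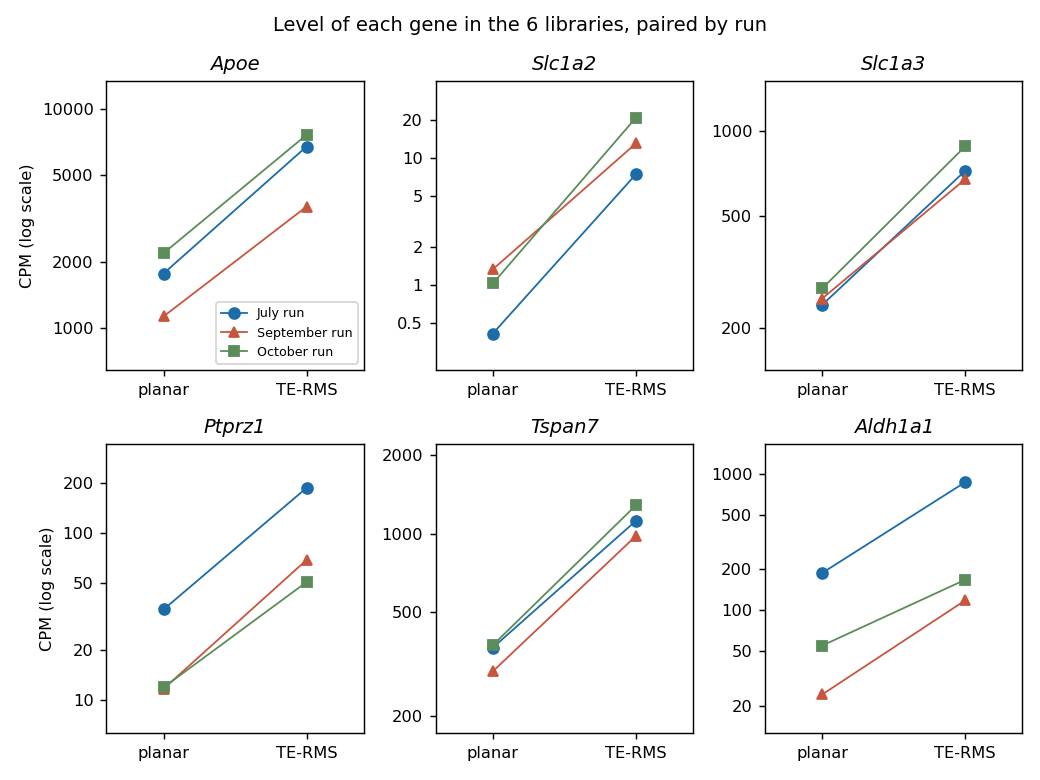
Level of each of the 6 genes in CPM on a log axis, one panel per gene, with the planar and the TE-RMS library of a run joined by a line. Every line rises from planar to TE-RMS, and only in the panel of Aldh1a1 do the levels of the formats overlap.

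Apoe (ENSRNOG00000018454) lies on chromosome 1 of the mRatBN7.2 build, from 79353916 to 79357932 on the minus strand. In planar astrocytes it stood at 1778, 1132 and 2201 CPM in July, September and October. In TE-RMSs of the same runs it stood at 6761, 3593 and 7646 CPM. The lowest TE-RMS library lay above the highest planar library, and September was the low run in both formats. The mean was 1704 ± 538.8 CPM (SD, n = 3) in planar astrocytes and 6000 ± 2131 CPM (SD, n = 3) in TE-RMSs. The fold was 3.80 in July, 3.18 in September and 3.47 in October, and the fitted log2 fold change was 1.80 (SE 0.18).

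Slc1a2 (ENSRNOG00000005479), the gene of GLT-1, lies on chromosome 3 from 89005129 to 89126498 on the plus strand. Planar libraries held 28, 96 and 62 counts of it in July, September and October, or 0.414, 1.33 and 1.03 CPM. TE-RMS libraries held 422, 937 and 1319 counts, or 7.44, 13.0 and 20.8 CPM. The gene was scarce but above 3 counts in every planar library, and the formats did not overlap. The fold was 18.0 in July, 9.82 in September and 20.3 in October, and the log2 fold change of 3.92 had an SE of 0.41, where the other 5 genes had SEs of 0.17 to 0.19. The 28 counts of the July planar library were the fewest in any library for the 6 genes.

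Slc1a3 (ENSRNOG00000016163), the gene of GLAST, lies on chromosome 2 from 57755497 to 57830605 on the minus strand. It stood at 240.7 CPM in July, 253.5 CPM in September and 275.4 CPM in October in planar astrocytes, and at 722.1, 673.8 and 882 CPM in the TE-RMS libraries of these runs. Its planar libraries were the most even of the 6 genes, the highest at 1.14 times the lowest, and in TE-RMSs the highest was at 1.31 times the lowest. The mean was 256.5 ± 17.5 CPM (SD, n = 3) in planar astrocytes and 759.3 ± 109 CPM (SD, n = 3) in TE-RMSs. The fold was 3.00, 2.66 and 3.20 in the 3 runs, and the log2 fold change was 1.56 (SE 0.17). Both glutamate transporters were therefore higher in TE-RMSs in each run.

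Promoter windows of 300 bases, 250 before and 50 from an annotated start site, were read from RefSeq on the GRCr8 build, which is not the build of the counts. Of the 6 genes, 5 matched by symbol with 10 windows in all, and Ptprz1 had none. The first listed window is shown for the lipid carrier gene Apoe and for the 2 glutamate transporter genes, so that the promoters of the transporter pair can be set side by side. Capitals mark matches to the searched motifs. The windows lie at chr1:88485767-88486066 on the minus strand for Apoe, chr3:109459859-109460158 on the plus strand for Slc1a2 and chr2:59557759-59558058 on the minus strand for Slc1a3.
Apoe: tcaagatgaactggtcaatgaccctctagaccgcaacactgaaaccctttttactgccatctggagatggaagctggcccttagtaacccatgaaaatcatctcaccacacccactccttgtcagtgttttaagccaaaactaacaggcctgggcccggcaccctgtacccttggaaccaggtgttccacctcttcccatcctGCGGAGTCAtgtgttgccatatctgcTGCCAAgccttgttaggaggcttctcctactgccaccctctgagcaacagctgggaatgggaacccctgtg
Slc1a2: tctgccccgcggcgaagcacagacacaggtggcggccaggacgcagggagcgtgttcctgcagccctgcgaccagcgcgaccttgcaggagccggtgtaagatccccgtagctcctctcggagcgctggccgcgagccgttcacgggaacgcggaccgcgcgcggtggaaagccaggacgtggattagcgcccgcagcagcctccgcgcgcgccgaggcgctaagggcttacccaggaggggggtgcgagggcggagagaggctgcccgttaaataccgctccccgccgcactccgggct
Slc1a3: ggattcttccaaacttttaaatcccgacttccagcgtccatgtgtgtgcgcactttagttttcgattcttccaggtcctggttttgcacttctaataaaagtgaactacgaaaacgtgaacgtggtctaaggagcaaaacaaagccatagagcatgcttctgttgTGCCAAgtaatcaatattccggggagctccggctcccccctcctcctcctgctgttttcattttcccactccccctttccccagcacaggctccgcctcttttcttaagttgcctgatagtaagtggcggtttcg

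On both strands the windows were searched for TATAAA (the TATA box), TTGGCA (an NFI recognition core), CATTGT (a SOX core), TGACNNNGC (the core of the antioxidant response element), TTCNNNGAA (STAT) and TGANTCA (AP-1), of which the antioxidant core and the AP-1 letters can overlap. Among all 33469 windows these letters occurred in 14.2%, 14.0%, 13.2%, 12.1%, 8.87% and 7.33% respectively. The Apoe window held the opposite strand form of the NFI core, TGCCAA, from position -21 relative to the start site and that of the antioxidant core, GCGGAGTCA, from position -47. The Slc1a3 window held TGCCAA from position -85, and the overlapping windows 2 and 3 of this gene held the same letters. None of the 6 motifs was matched in the Slc1a2 window shown or in the remaining windows of Apoe, Slc1a2, Tspan7 and Aldh1a1. These matches describe letters only. The Slc1a2 window shown had a GC content of 71%, against 52.7% for the Apoe window and 48.3% for the Slc1a3 window. This order depends on the window, since window 2 of Slc1a2 had 46.3%. Windows 2 and 3 had 63.7% and 59.7% for Apoe, and 48.7% and 50% for Slc1a3.

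Ptprz1 (ENSRNOG00000006030) lies on chromosome 4 from 51397601 to 51595218 on the plus strand. Planar libraries stood at 34.8, 11.6 and 11.9 CPM in July, September and October, and TE-RMS libraries at 186.4, 68.9 and 50.8 CPM. The formats did not overlap, and in both of them July was the high run. The mean was 19.4 ± 13.3 CPM (SD, n = 3) in planar astrocytes and 102 ± 73.6 CPM (SD, n = 3) in TE-RMSs. The fold was 5.36, 5.92 and 4.28 in the 3 runs, and the log2 fold change was 2.36 (SE 0.18).

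Tspan7 (ENSRNOG00000003229) lies on the X chromosome from 12208783 to 12306131 on the minus strand. It stood at 365.6 CPM in July, 296.5 CPM in September and 373.6 CPM in October in planar astrocytes, and at 1119, 979.1 and 1283 CPM in the TE-RMS libraries of these runs. The formats were well apart, with means of 345.2 ± 42.4 and 1127 ± 152.3 CPM (SD, n = 3 each). The fold was 3.06, 3.30 and 3.43, and the log2 fold change was 1.71 (SE 0.17).

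Aldh1a1 (ENSRNOG00000017619) lies on chromosome 1 from 218042127 to 218152961 on the plus strand. Planar libraries stood at 188.1, 24.1 and 55.1 CPM in July, September and October, and TE-RMS libraries at 873.3, 118.4 and 167.8 CPM. It was the only one of the 6 genes whose formats overlapped, since the July planar library lay above the TE-RMS libraries of September and October. Within each run the gene was higher in TE-RMSs, by 4.64, 4.91 and 3.04 times, and the log2 fold change was 2.04 (SE 0.19). For the other 5 genes all 3 TE-RMS libraries lay above all 3 planar libraries, as they did for 13.2% of all tested genes.

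**Figure D2:**
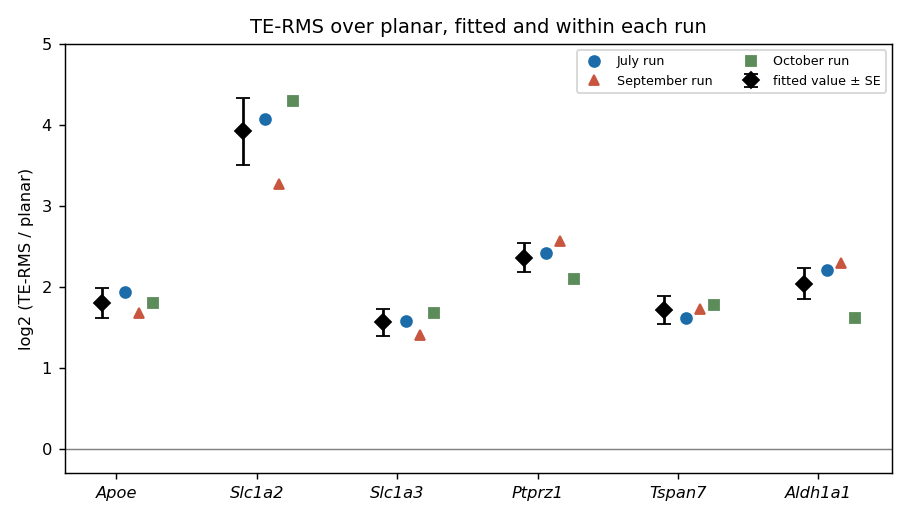
Log2 ratio of TE-RMS to planar astrocytes for the 6 genes, with a point for each run beside the fitted log2 fold change and its SE. All points lie above 0, Slc1a2 stands highest and spreads most between 3.27 and 4.30, and the ratios of the other 5 genes lie between 1.41 and 2.56.

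The runs differed for some of the 6 genes. The contrast between runs is not the one that ordered the gene list, but that order came from a model with the run as a block and so favours genes with little residual spread, which the test of the runs also uses. A joint test of the run terms in the same edgeR fit, adjusted over all 16331 genes, called 3.21% of all genes and 11.8% of the 1503 named genes. Set beside the share among named genes, it called 3 of the 6, Aldh1a1 (adjusted p = 5.49e-05), Ptprz1 (adjusted p = 0.00106) and Apoe (adjusted p = 0.045). Aldh1a1 was highest in July in both formats, with its highest library 7.79 times the lowest in planar astrocytes and 7.38 times in TE-RMSs. Ptprz1 was likewise highest in July in both formats, by 2.99 and 3.67 times over the lowest library. The Ptprz1 call rested on July, since without that run the adjusted p was 0.778.

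Apoe was lowest in September in both formats, and its highest library was 1.95 times the lowest in planar astrocytes and 2.13 times in TE-RMSs. Its call was close to the threshold and was lost without September (adjusted p = 0.92) and without October (adjusted p = 0.117, edgeR). For Slc1a2, Tspan7 and Slc1a3 the test gave adjusted p-values of 0.221, 0.604 and 0.727 in edgeR, which does not show that their runs were alike. A run joined 1 library of each format, so whether the ratio of the formats differed between runs could not be tested.

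**Figure D3:**
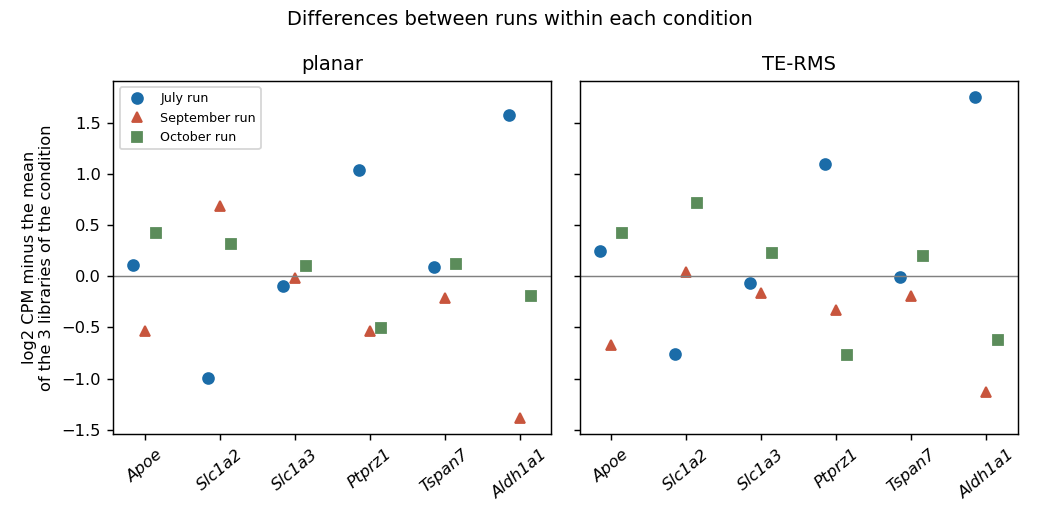
Level of each gene in every library relative to the mean of its format on the log2 scale, by run. Aldh1a1 and Ptprz1 are high in July in both formats, Apoe is low in September in both, and Slc1a3 and Tspan7 stay close to 0.

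Likeness of the 6 genes across the runs was described by Pearson's r of log2 CPM over the 6 libraries after each format's mean was subtracted. Ptprz1 and Aldh1a1 deviated together (r = 0.92), as did Apoe and Tspan7 (r = 0.95). Slc1a2 deviated opposite to Ptprz1 (r = -0.97) and Aldh1a1 (r = -0.89). Each r rests on 6 libraries from 3 runs that share formats and scaling, and is given as a description.

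Among 1275 named genes with a mean of at least 10 CPM, the level of Apoe over the 6 libraries was most like that of Ednrb (r = 0.993), the endothelin receptor B gene of astrocytes, Pgm1 and Clasp2. Ptprz1 was most like Dlg1 (r = 0.993), Rad21 and Eef1a1, and Tspan7 most like Atp6v0d1 (r = 0.996), Stk3 and Rb1. Aldh1a1 was most like Plekhb1 (r = 0.988), Sparcl1 and Gpm6a, of which the last encodes a neural membrane glycoprotein. Slc1a2 was most like Chek1 (r = 0.996), Rnf170 and Krit1, and Slc1a3 most like Rnf167 (r = 0.996), Tlcd4 and Vps41. These r values include the difference between the formats, which chose the genes, as well as differences between runs.

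With each format's mean subtracted, the most alike genes were others. They were Iqsec1 (r = 0.994), Loxl2 and AABR07029732.1 for Apoe, and Mxd4 (r = 1.000), Slc25a18 and Ier5l for Tspan7. Ptprz1 was most like Nlgn1 (r = 1.000), Glipr2 and Lpp, and Aldh1a1 most like Cnn2 (r = 0.999), Tagln and Zfp317. Cnn2 and Tagln encode actin-binding proteins of the calponin family. Slc1a2 was most like Mt1 (r = 0.990), a metallothionein gene, Bmper and Cyp1a1, and Slc1a3 most like Tsc22d1 (r = 0.992), Gadd45g and Cntf. This likeness leaves out the difference between the formats, in which Nlgn1, Slc25a18, Zfp317, Bmper and Cyp1a1 were higher in TE-RMSs, as the 6 genes were, and the others lower, with log2 fold changes from -0.91 for Tsc22d1 to -4.04 for Tagln. Each of these is among the highest r of 1275 candidates over 6 libraries and is given with no test.

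The other genes of the same cell type and pathways were taken from lists, and only their named members could be read. Of the 1503 named genes, 747 were called higher, 752 lower and 4 were not called, so that being called was fixed by how the names were obtained. The counts for the lists below describe the named genes alone and say nothing of the unnamed ones. Of 35 astrocyte markers 16 were named, Slc1a2 and Slc1a3 among them, and 12 of these were higher and 4 lower in TE-RMSs, with a median log2 fold change of 1.52. Gja1, which encodes the gap junction protein connexin 43, stood at 274.8, 281.9 and 222.3 CPM in planar astrocytes and at 543.1, 814 and 861.9 CPM in TE-RMSs (log2 fold change 1.49). Ntrk2, the gene of the neurotrophin receptor TrkB, had 1.47, Ednrb 2.02 and Slco1c1, which encodes a thyroid hormone transporter, 3.01. The lower ones were the growth factor receptor gene Fgfr3 at -2.57, the genes Bcan and Ncan of the matrix proteoglycans brevican and neurocan at -1.55 and -1.32, and the transcriptional inhibitor gene Id4 at -1.02. The summed level of the 16 genes was 1661, 1669 and 1632 CPM in planar astrocytes and 3897, 2639 and 3157 CPM in TE-RMSs. In bulk libraries fewer cells of a type and less RNA per cell cannot be told apart.

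Of 20 markers of immature and reactive astrocytes 12 were named, and 8 of these were lower and 4 higher, with a median log2 fold change of -1.24. Sox2, a transcription factor gene of neural progenitors, stood at 332.1, 254.9 and 333.1 CPM in planar astrocytes and at 88.0, 62.6 and 104.1 CPM in TE-RMSs (-1.87). Nes, the gene of the intermediate filament nestin, had a log2 fold change of -1.56, S100a6 -2.38, Id1 -1.27, Id3 -1.29, Tnc -1.09 and the small heat shock genes Hspb1 and Cryab -1.20 and -1.37. The higher ones were Prom1 at 2.08, Pdpn at 1.76, Vcam1 at 1.07 and the hyaluronan receptor gene Cd44 at 0.84. The summed level was 6982, 6625 and 5709 CPM in planar astrocytes and 3537, 3547 and 2968 CPM in TE-RMSs.

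Beside Apoe, 2 of the 23 genes listed for lipoprotein particles and their receptors were named, and the median of the 3 was 1.80. Pla2g7, which encodes a lipoprotein-associated phospholipase, stood at 28.6, 35.9 and 8.78 CPM in planar astrocytes and at 202.2, 575.6 and 259.8 CPM in TE-RMSs (log2 fold change 3.90). Lrp10, of the low-density lipoprotein receptor family, had -1.03. Of 37 genes of lipid synthesis, droplets and turnover 16 were named, 12 of them higher and 4 lower, with a median of 0.98. Genes of lipid droplets and of stored lipid were among the higher ones, with Plin2, which coats droplets, at 1.52, G0s2 at 1.75, Abhd5 at 0.98, Lipa at 0.87 and the cholesteryl ester hydrolase gene Nceh1 at 1.70. Among fatty acid enzymes, Elovl5 had 1.61, Acsl3 1.15 and Scd2 1.12, while the desaturase genes Fads2 and Fads3 had -1.48 and -1.71. Fdps, of the cholesterol pathway, had -1.01. Srebf1, the gene of a regulator of lipid synthesis, stood at 75.5, 131 and 418.9 CPM in planar astrocytes and 47.3, 45.3 and 168.2 CPM in TE-RMSs (-1.18), so its formats overlapped. The remaining named genes of this list, Cyp7b1, Hsd3b7, Chpt1 and Cept1, had log2 fold changes from 0.85 to 1.29. As for Srebf1, the formats overlapped for Acsl3, Lipa and Cyp7b1.

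Of 22 genes for glutamate uptake and handling 7 were named, all of them higher in TE-RMSs with a median log2 fold change of 1.88, and the other 15 were not read. Beyond Slc1a2 and Slc1a3 the named ones included Slc7a11, the cystine-glutamate exchanger gene, at 0.636, 0.401 and 1.44 CPM in planar astrocytes and 8.94, 112.4 and 49.2 CPM in TE-RMSs (5.59). Slc25a18, a mitochondrial glutamate carrier gene, had 2.35, the sodium pump subunit gene Atp1b2 1.88, and the amino acid transporter gene Slc38a2 and the aminotransferase gene Gpt2 both 1.38. Slc25a18 and Atp1b2, like Slc1a2 and Slc1a3, are also among the astrocyte markers, so the lists overlap.

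For Ptprz1 ligands and proteoglycan partners, 10 of 19 genes were named, Ptprz1 itself and 4 others higher and 5 lower, with a median of 0.07. Ptn, the gene of pleiotrophin, a ligand of the Ptprz1 product, stood at 4150, 5167 and 2397 CPM in planar astrocytes and at 10414, 8667 and 7672 CPM in TE-RMSs (log2 fold change 1.25). Nrcam had 1.22, Nlgn1 1.52 and Cspg5, which is also among the astrocyte markers, 2.16. The syndecan gene Sdc3 had -4.02 and the NG2 proteoglycan gene Cspg4 -3.41, and Tnc, Bcan and Ncan were lower as given above. The log2 ratio of Cspg4 was -2.46 in July, -2.47 in September and -5.36 in October, where the TE-RMS library held 6 counts.

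Of 25 aldehyde dehydrogenase and retinoid genes 4 were named, with Aldh1a1, the retinoic acid-binding protein gene Crabp2 at 1.68 and the mitochondrial Aldh6a1 at 0.77 higher and the mitochondrial Aldh2 at -1.30 lower. The median of the list was 1.22, and without the run in the model none of its 3 higher genes was called higher. Of 22 tetraspanin genes 3 were named, and Tspan7 was higher while Tspan17 at -1.63 and Cd82 at -1.16 were lower, with a median of -1.16.

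**Figure D4:**
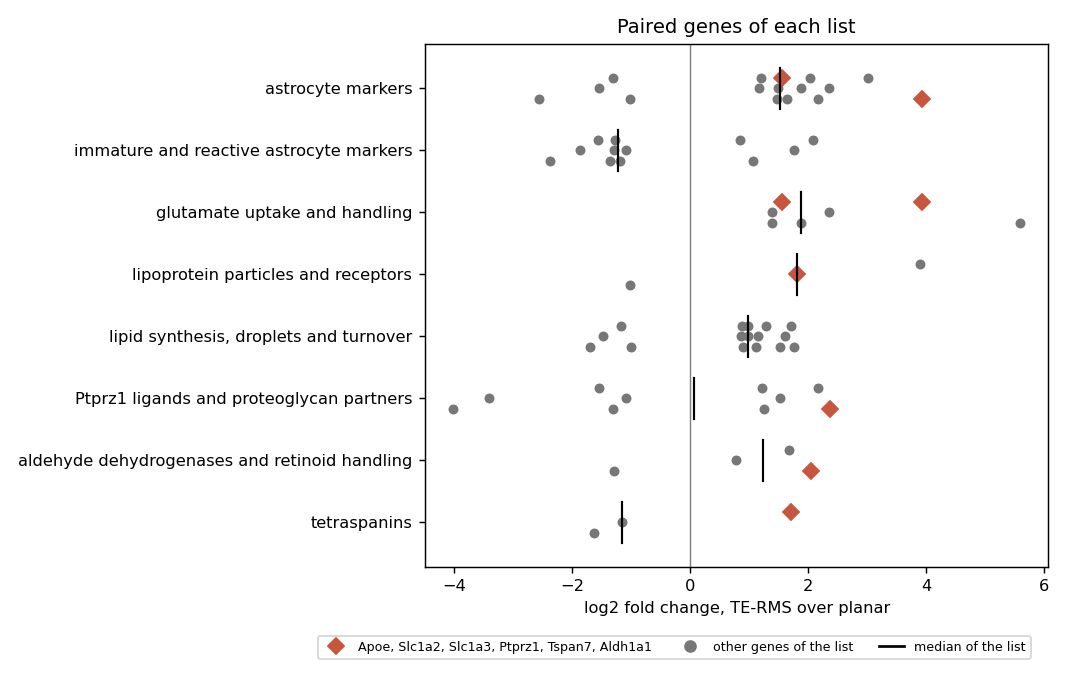
Log2 fold change, TE-RMS over planar, of every named gene in the astrocyte lists and in the lists for the pathways and families of the 6 genes, with diamonds for the 6 genes, circles for the others and a bar at the median of each list. All named glutamate genes lie above 0, 12 of 16 astrocyte markers lie above 0, and 8 of 12 immature and reactive markers lie below 0. The lists share genes, which are then drawn in each of them.

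Markers of other cells that such cultures can hold were read in the same way, by their named genes only. Of 16 fibroblast and mural cell markers 10 were named and all of these were lower in TE-RMSs, with a median log2 fold change of -1.60, and their summed level was 1798, 1127 and 1810 CPM in planar astrocytes and 579.3, 413.6 and 491.5 CPM in TE-RMSs. Acta2 had -6.64, Col1a1 -1.69 and Col1a2 -1.50, and by CPM Col1a2, Omd, Fbln5 or Thy1 was the most abundant gene of the list. The log2 ratio of Acta2 varied by run, at -7.35 in July, -4.18 in September and -9.75 in October, the last from 3 TE-RMS counts. Without the run in the model 6 of the 10 were called lower.

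Of 18 microglia and macrophage markers 2 were named, Cd68, which was higher, and Tmem119, which was lower. Their summed level was 25.9, 38.8 and 27.2 CPM in planar astrocytes and 13.9, 91.0 and 12.9 CPM in TE-RMSs. Cd68, a lysosomal gene of macrophages, stood at 1.30, 15.6 and 0.777 CPM in planar astrocytes and at 8.70, 85.4 and 3.75 CPM in TE-RMSs (2.49). It was highest in September in both formats. Tmem119, a marker of microglia, stood at 24.6, 23.2 and 26.5 CPM in planar astrocytes and 5.26, 5.60 and 9.14 CPM in TE-RMSs (-1.94).

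Of 15 oligodendrocyte lineage markers 3 were named, Cspg4 at -3.41 with the uneven run ratios given above, Mal at -3.10 and Gldn at -1.54. Cspg4 is also in the fibroblast and mural list. The summed level was 394.3, 171 and 222.2 CPM in planar astrocytes and 64.6, 94.1 and 90.5 CPM in TE-RMSs. Gldn gave 94.5% to 99.9% of it, so the sum is close to the level of Gldn alone. Of 16 neuron markers 6 were named, 3 of them higher and 3 lower, with a median of 0.46. The sum was 207.8, 269.2 and 148.6 CPM in planar astrocytes and 167.6, 215.7 and 97.1 CPM in TE-RMSs, with Thy1, which is also in the fibroblast and mural list, giving 50.4% to 87.9% of it. The log2 fold changes were -0.84 for Thy1, -2.53 for Sv2a and -2.20 for Cplx2, and 1.91 for Map2, 1.77 for Snap91 and 4.61 for Snap25. The synaptic gene Snap25 stood at 0.0148, 3.92 and 0.0496 CPM in planar astrocytes and at 0.459, 60.8 and 3.50 CPM in TE-RMSs, high in September in both formats. Of 11 endothelial markers Klf2 alone was named, at 64.2, 62.0 and 12.9 CPM in planar astrocytes and 5.63, 6.54 and 1.73 CPM in TE-RMSs. The July planar value of Snap25 is a single count and the October TE-RMS value of Mal is 2 counts, both under the floor of 3 counts, and no named marker of these lists was at 0 in any library. Without the run in the model Cd68 was not called higher, and 1 neuron marker was. The part of these markers in the levels of the 6 genes was not tested.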

How the data were processed

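Astrocyte cultures of 2 formats in 3 runs gave 6 RNA-seq libraries, made with a non-stranded kit, so reads from antisense partners cannot be told apart. The authors trimmed reads with fastp, quantified them with Salmon on Ensembl transcripts of mRatBN7.2 and added these up over each gene. What they deposited is estimated counts of genes, in whole numbers without normalization, and 0 columns lacked a sample. Salmon divides reads of similar transcripts by probability, so paralogs depend on that division. Columns of the authors' own comparison in the published gene list were not used beyond its order.

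Names and positions came from that list (1517 identifiers, 1503 named). The members and gene lists were chosen with earlier results of these data known. Genes named in the text are the members, the named genes of the lists, and the 3 genes most like each member by each r, among named genes with a mean of at least 10 CPM. C4a and Il1rl1 are named besides, as the named genes that ranked last by p in the edgeR fit.

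Genes with a total of 10 or more counts (16331) were TMM scaled and tested in R 4.3.3 with edgeR 4.0.16 (quasi-likelihood, run as a block, Benjamini-Hochberg, threshold 0.05, prior count 0.125 for fitted folds and 2 for ratios within a run and log2 CPM). The SE was obtained from the fold change and its F statistic. Run numbers pair the libraries, since the methods pair them and deviations of same-run libraries correlated at 0.27, 0.24 and 0.18, against -0.16 to -0.07 across runs. Because each format's mean was subtracted, values across runs must offset those within a run. The negative values are therefore not separate evidence. Alternatives were DESeq2 1.42.0, limma 3.58.1 with voom, other scalings and filters, no block and each run left out. The fits were tested on simulated data. No libraries of the same format agreed within sampling noise. Each run used other animals, as the study states. Protein sequences were not used here, and some listed marker genes are not reported here.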

Additional observations from a re-analysis of the deposited data

How the results depend on the processing

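The log2 fold changes of the 6 genes kept their direction under all 10 alternatives, from 1.73 to 1.86 for Apoe, 2.26 to 2.53 for Ptprz1, 1.66 to 1.75 for Tspan7, 1.91 to 2.29 for Aldh1a1, 3.74 to 4.25 for Slc1a2 and 1.51 to 1.63 for Slc1a3. Without the replicate block, which pairs the libraries of a run, 1441 genes were called in place of 3044, 708 higher and 733 lower, and Aldh1a1 was not called (log2 fold change 2.12, adjusted p = 0.146, edgeR), while the other 5 genes were. Leaving out one run, the genes called lower numbered from 956 without October to 1622 without July. Between runs, 525 genes were called, 224 when at least 10 counts in at least 3 libraries were required and 1257 with DESeq2. The adjusted p of Apoe between runs was 0.0795 with that filter, and with one run left out it ranged from 1.36e-05 without July to 0.92 without September. For Ptprz1 it ranged from 3.81e-08 without September to 0.778 without July. No result reversed, and the cause of these changes was not tested. With library totals as the only scaling, the ratios of Tspan7 moved to 1.73, 1.58 and 1.66 in July, September and October, and in September those of Apoe and Slc1a3 to 1.53 and 1.27. Without the block the genes called also moved by over 1.5 times in 4 lists, those for aldehydes and retinoids, microglia, neurons and fibroblasts. Among the 6 genes the planar counts of Slc1a2 were the lowest, and for Snap25 and Mal single libraries were under 3 counts.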
